A study of Mus musculus with 21 samples.

Results

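Dendritic epidermal T cells are represented here by 10 genes of the 49315 in the count files: the CD3 subunits Cd3d, Cd3e, Cd3g and Cd247, the gamma-delta receptor genes Trdc, Trdv4 and Tcrg-C1, the activating receptor gene Klrk1, the surface protein gene Cd7 and the chemokine gene Xcl1. They were chosen by name as genes of this cell type, and each symbol was matched to 1 Ensembl identifier of the count files. All 10 identifiers are in the GENCODE M21 annotation. The series is about Tfap2a and Tfap2b, the genes of the factors AP-2α and AP-2β, in adult mouse epidermis, and total RNA from epidermal sheets was sequenced after removal of ribosomal RNA. The comparison is between 3 libraries labelled K14CreTfap2afl/flTfap2bfl/fl, in which both genes carry floxed alleles and Cre is driven by the Krt14 promoter, and 3 libraries of strain-specific controls labelled WT, all from mice aged 6 months. A further 2 libraries with counts are labelled K14CreTfap2bfl/fl, from mice aged 3 weeks, and enter no test because the 3-week control files held a 0 for every gene.

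The Krt14 promoter is active in keratinocytes and not in T cells, so the Cre of this design acts on the epithelium around these cells. The labels do not say whether replicates were separate animals, so p-values measure the spread between these samples. As the check of the labels, Tfap2a stood at 165, 140 and 210 CPM (counts scaled to a library total of 1000000) in control replicates 1, 2 and 3 and at 229, 213 and 309 CPM in the libraries with the double knockout label (log2 fold change 0.47 ± 0.19, standard error, adjusted p = 0.118, edgeR's quasi-likelihood test with Benjamini-Hochberg adjustment). Tfap2b stood at 57.3, 86.6 and 71.0 CPM in the controls, against 53.8, 57.2 and 56.9 CPM in the other group (log2 fold change -0.43 ± 0.17, adjusted p = 0.111, same test). Neither gene-level value shows a loss, so the group is named only by its label, as dKO-labelled.

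Dendritic epidermal T cells are gamma-delta T cells that seed the mouse epidermis before birth, renew themselves there and lie between keratinocytes with long processes. Nearly all carry the same receptor, made of the gamma chain encoded by Tcrg-V5 with Tcrg-C1 and the delta chain encoded by Trdv4 with Trdc, and the CD3 subunits carry that receptor to the surface and pass its signal on. The cells watch keratinocytes for stress through the receptor and through NKG2D, the product of Klrk1, and in wounds they release growth factors, cytokines and chemokines.

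The V segments of the canonical receptor are printed because nearly all of these cells carry that receptor. Each has 2 coding exons, and the second is shown as the GENCODE M21 transcript gives it on GRCm38, at chr14:54075217-54075515 (plus strand) for Trdv4 and chr13:19192428-19192725 (plus strand) for Tcrg-V5. The capitals mark the cysteine codon that follows a pair of tyrosine codons, near the join to the next gene segment.
Trdv4: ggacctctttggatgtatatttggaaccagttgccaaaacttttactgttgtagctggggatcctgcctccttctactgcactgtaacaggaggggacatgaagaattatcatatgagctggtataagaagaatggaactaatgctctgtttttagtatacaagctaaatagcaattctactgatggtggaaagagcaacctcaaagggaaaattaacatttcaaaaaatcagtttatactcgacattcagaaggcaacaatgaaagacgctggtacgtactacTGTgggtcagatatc
Tcrg-V5: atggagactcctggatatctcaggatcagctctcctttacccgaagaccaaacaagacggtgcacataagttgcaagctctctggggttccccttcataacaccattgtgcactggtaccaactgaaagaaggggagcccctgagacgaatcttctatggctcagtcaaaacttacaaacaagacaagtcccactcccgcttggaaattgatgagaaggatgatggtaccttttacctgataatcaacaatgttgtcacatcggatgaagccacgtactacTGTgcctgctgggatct
These exons have 299 and 298 bases, of 345 and 341 coding bases in all, with 12 and 14 bases after the capitals. No run of 100 bases of either occurs in another annotated transcript, so reads that lie within them have 1 origin in this annotation.

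The 3 CD3 subunit genes Cd3g, Cd3d and Cd3e lie together on chromosome 9, and their promoters are shown because these genes moved together from library to library. The start sites of Cd3g and Cd3d, which are read in opposite directions, are 1355 bases apart. The 250 bases before each start site are from RefSeq on GRCm38.p6, 5′ to 3′ on the gene's own strand: chr9:44980432-44980681 (minus strand) for Cd3g, chr9:44981536-44981785 (plus strand) for Cd3d and chr9:45009612-45009861 (minus strand) for Cd3e. Capitals mark the letters AGGAAG on either strand, a form of the site that ETS factors bind. Other forms of that site were not searched for and are not marked.
Cd3g: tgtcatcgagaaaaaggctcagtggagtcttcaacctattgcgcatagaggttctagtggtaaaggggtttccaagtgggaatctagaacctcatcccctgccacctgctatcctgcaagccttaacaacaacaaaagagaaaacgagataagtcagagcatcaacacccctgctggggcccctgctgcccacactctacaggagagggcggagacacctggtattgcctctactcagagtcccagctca
Cd3d: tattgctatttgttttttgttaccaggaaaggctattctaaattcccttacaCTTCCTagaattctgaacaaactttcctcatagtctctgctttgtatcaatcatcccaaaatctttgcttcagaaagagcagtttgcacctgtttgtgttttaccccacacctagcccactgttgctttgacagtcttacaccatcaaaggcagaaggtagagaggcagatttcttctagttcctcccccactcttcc
Cd3e: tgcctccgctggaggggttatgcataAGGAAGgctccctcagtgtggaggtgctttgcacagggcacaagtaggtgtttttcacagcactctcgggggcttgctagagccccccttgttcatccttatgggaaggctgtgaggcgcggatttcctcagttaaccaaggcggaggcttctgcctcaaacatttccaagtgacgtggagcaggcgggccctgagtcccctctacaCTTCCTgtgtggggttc
RefSeq promoters were matched for 6 of the 10 genes: these 3, Cd247, Klrk1 and Xcl1. AGGAAG was present on either strand in 4 of the 6 (Cd3d, Cd3e, Cd247 and Xcl1) and in 29.48% of all 32851 promoters of that length. The RUNX core TGTGGT was in 2 of the 6 (Klrk1 and Xcl1) and in 14.05% of all. The AP-2 motif GCCNNNGGC was in 0 of 6 against 13.73% of all, and the AP-1 motif TGANTCA was in 0 of 6 against 6.749% of all. These matches describe letters in a window and no binding was measured.

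The 8 libraries held 11318181 to 17746284 counts. Control replicates 1 and 2 stood apart. Odorant and vomeronasal receptor genes were taken as a measure of background. They gave 1.61 and 3.19 counts per exonic kilobase in those 2 controls against 0.0970 to 0.195 in the other 6 libraries. Genes with any count numbered 35794 and 39362 in those controls and 23454 to 25537 in the others. Values are therefore also given without these 2 controls, in a fit where the lone remaining control is taken to vary like the other group. In the 3-week library labelled replicate 1, the dermal fibroblast markers summed to 3240 CPM and the endothelial markers to 440 CPM, against 28.5 and 0.320 CPM in replicate 2. Keratinocyte markers summed to 14419 to 24853 CPM in all 8 libraries.

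None of the 10 chosen genes passed the threshold between the dKO-labelled libraries and the controls. All 10 passed the filter on low counts, 0 of 10 had an adjusted p under 0.05 in edgeR's quasi-likelihood test, and 0 of 10 had an unadjusted p under 0.05, where 14.9% of the 17755 genes tested were called. DESeq2 and limma-voom also called 0 of 10. The log2 fold change was negative for 8 genes and positive for 2, with a median of -0.38, beside a median of -0.035 over all genes tested. For each of the 10 genes the CPM values of the groups overlapped, whereas 38.7% of tested genes had groups without overlap. Bulk RNA cannot tell fewer of these cells from less RNA of these genes per cell.

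**Figure D1:**
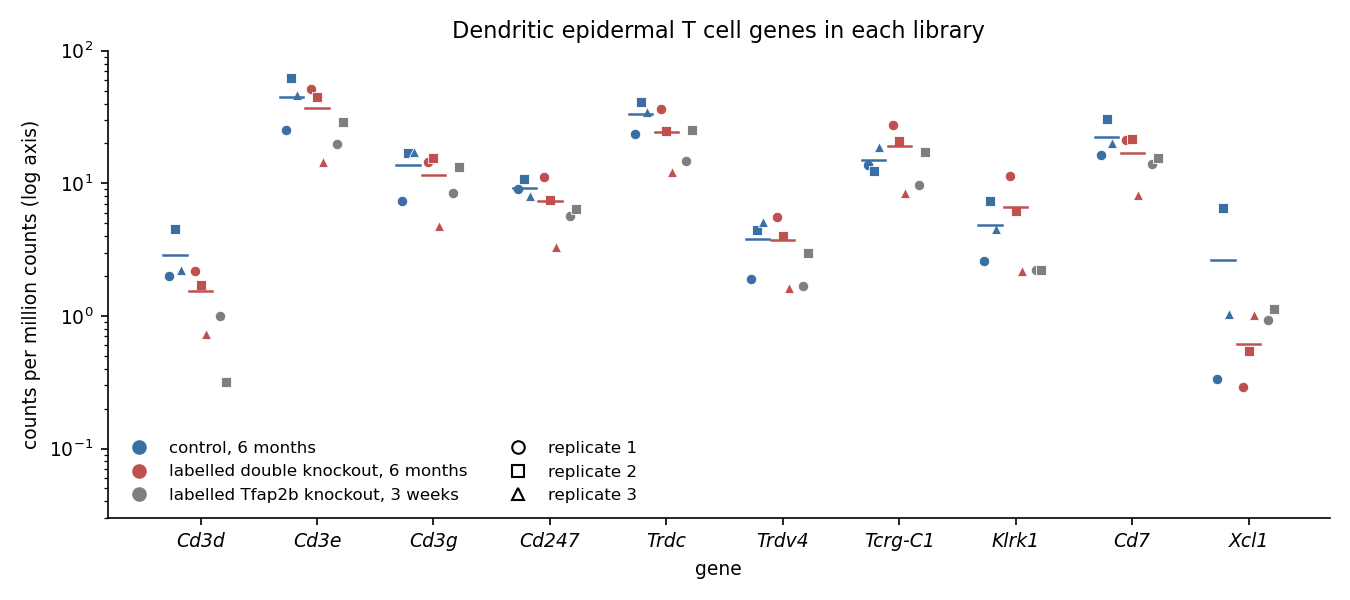
CPM on a log axis for each of the 10 genes, with 1 point per library and a bar at the mean of the 3 libraries of each 6-month group; colours give the group and shapes the replicate number. In the dKO-labelled libraries, replicate 3 (triangles) is the lowest point for every gene but Xcl1, and the groups overlap for all 10 genes.

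Cd3e, the CD3 subunit measured with the most counts (259 to 713 counts per library at 6 months), lies at chromosome 9, 44998740 to 45009627, minus strand. Its level was 25.2, 62.0 and 46.4 CPM in control replicates 1, 2 and 3 and 51.3, 44.7 and 14.6 CPM in the dKO-labelled libraries. The controls alone spanned more than a doubling, and replicates 1 and 2 of the other group lay inside that span while replicate 3 lay under it. The means were 44.5 ± 18.5 and 36.9 ± 19.6 CPM (SD, n = 3 each), and the log2 fold change was -0.35 ± 0.49 (standard error, adjusted p = 0.656, edgeR). Its 95% interval runs from a ratio of 0.353 to one of 1.74, which leaves a fall or a rise of that size undetected at this spread.

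Cd3g, a partner of the epsilon subunit in the complex (chromosome 9, 44969572 to 44980431, minus strand), gave 7.31, 17.0 and 17.3 CPM in the controls. The dKO-labelled libraries gave 14.4, 15.5 and 4.73 CPM. The low values were again in control replicate 1 and dKO-labelled replicate 3, and the log2 fold change was -0.34 ± 0.46 (adjusted p = 0.645, edgeR). Cd3d, the delta subunit (chromosome 9, 44981786 to 44987339, plus strand), was counted 13 to 51 times per library at 6 months. It gave 1.99, 4.51 and 2.21 CPM in the controls, against 2.17, 1.70 and 0.733 CPM in the other group, with a log2 fold change of -0.94 ± 0.56 (adjusted p = 0.246, edgeR). Control replicate 2 was its highest library, and leaving it out gave a log2 fold change of -0.50.

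Cd247, which encodes the zeta chain that carries most of the complex's signalling motifs (chromosome 1, 165788681 to 165877277, plus strand), was at 9.14, 10.7 and 8.01 CPM in the controls. Values of 11.2, 7.50 and 3.32 CPM were found in the dKO-labelled libraries. Its highest and its lowest library were thus both in that group, and the log2 fold change was -0.42 ± 0.39 (adjusted p = 0.486, edgeR). Exons of Pou2f1 on the opposite strand cover 56.4% of its exonic bases, and the use of strand in counting is not given in the sources used here, so reads of the 2 genes cannot be told apart there.

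Trdc, the constant region of the delta chain (chromosome 14, 54142851 to 54148868, plus strand), was at 23.6, 41.3 and 34.6 CPM in the controls, against 36.2, 25.02 and 12.1 CPM in the dKO-labelled libraries. The log2 fold change was -0.52 ± 0.36 (adjusted p = 0.355, edgeR), with means of 33.2 ± 8.93 and 24.4 ± 12.1 CPM (SD, n = 3 each). Trdv4, the V segment of that chain printed above (chromosome 14, 54074905 to 54075515, plus strand), gave 1.91, 4.42 and 5.08 CPM in the controls, against 5.58, 4.02 and 1.63 CPM in the other group. Each group held 2 libraries near 4 to 6 CPM and 1 under 2 CPM, and the log2 fold change was -0.10 ± 0.52 (adjusted p = 0.904, edgeR).

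Tcrg-C1, the constant region joined to the canonical gamma chain (chromosome 13, 19214103 to 19217024, plus strand), was 1 of the 2 genes with a positive value. It stood at 13.8, 12.5 and 18.7 CPM in the controls, against 27.6, 20.8 and 8.51 CPM in the dKO-labelled libraries. Replicates 1 and 2 of that group were above every control and replicate 3 was below every control, and the log2 fold change was 0.25 ± 0.37 (adjusted p = 0.670, edgeR). Of its runs of 100 bases, 8.24% also occur in Tcrg-C3 or Tcrg-C2, so its count is uncertain to that extent.

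Klrk1, which encodes the stress-ligand receptor NKG2D (chromosome 6, 129610323 to 129623864, minus strand), was the other gene with a positive value. It gave 2.57, 7.33 and 4.56 CPM in the controls, against 11.4, 6.20 and 2.20 CPM in the dKO-labelled libraries (log2 fold change 0.36 ± 0.57, adjusted p = 0.689, edgeR). Replicate 1 of that group held the highest value and replicate 3 the lowest of the 6. For Klrk1, the density over odorant and vomeronasal receptor genes corresponds to 11.6 of 31 counts in control replicate 1. In control replicate 2 it corresponds to 22.9 of 83 counts, and in the dKO-labelled libraries to 0.765 to 1.4 counts. Cd7, an immunoglobulin-family protein on the surface of T cells and NK cells (chromosome 11, 121036747 to 121039418, minus strand), gave 16.4, 30.3 and 20.1 CPM in the controls, against 21.1, 21.7 and 8.17 CPM in the other group. Replicate 3 was the lowest library and control replicate 2 the highest, and the log2 fold change was -0.47 ± 0.37 (adjusted p = 0.413, edgeR).

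Xcl1, a chemokine that these cells can release and that attracts dendritic cells bearing XCR1 (chromosome 1, 164931644 to 164935527, minus strand), did not follow the other 9 genes. It gave 0.332, 6.54 and 1.04 CPM in the controls, which rest on 4, 74 and 16 counts. The dKO-labelled libraries gave 0.290, 0.545 and 1.01 CPM, from 4, 8 and 18 counts. Control replicate 2 alone was high, and in the other group replicate 3 was the highest and not the lowest. Its log2 fold change of -1.92 ± 1.01 was the most negative of the 10 (adjusted p = 0.177, edgeR), and without control replicate 2 it was -0.18.

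**Figure D2:**
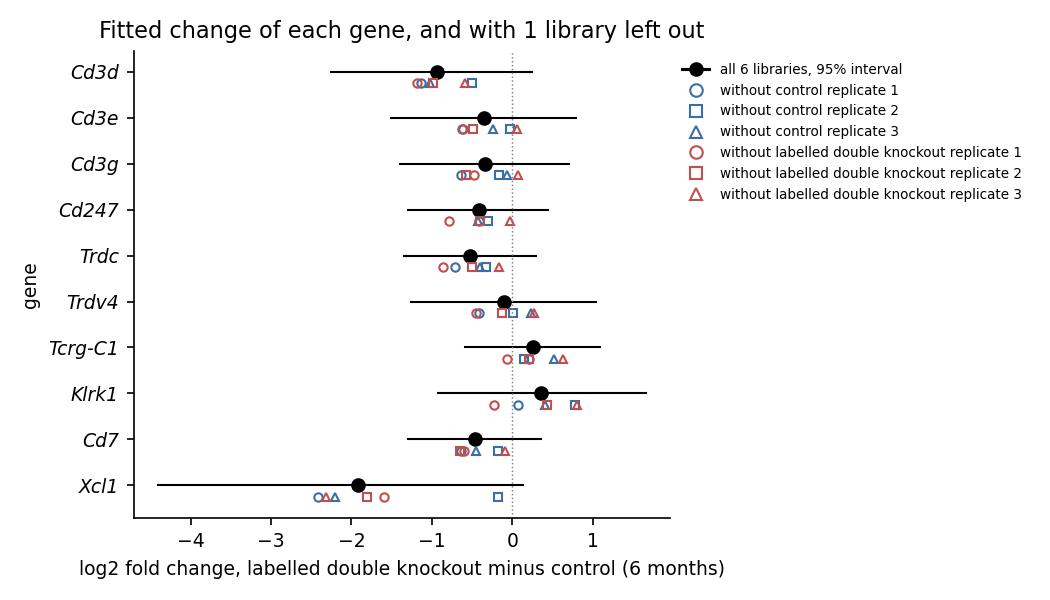
Log2 fold change of each gene in the dKO-labelled libraries minus the controls (black point, edgeR fit on 6 libraries) with its 95% interval, and below it the values with 1 library left out (coloured shapes). All 10 intervals include 0, and the red triangles, without dKO-labelled replicate 3, lie at or to the right of the black point for every gene but Xcl1.

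The lowest library was the same for 9 of the 10 genes. The dKO-labelled replicate 3 held the lowest of the 6 values at 6 months for each gene except Xcl1, whereas it held the lowest value for 14.8% of all tested genes. For those 9 genes its level was 0.249 to 0.396 of the mean of replicates 1 and 2 of its group. Over all tested genes the median of that ratio was 0.9748, and 6.61% had a ratio of 0.5 or less. Summed over the 10 genes, the dKO-labelled libraries held 181, 148 and 57.0 CPM, and the controls held 102, 196 and 158 CPM. The control values, too, spanned nearly a doubling, with replicate 1 the lowest.

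Leaving out libraries moved the median over the 10 genes. Without replicate 3 the median log2 fold change of the 10 genes was 0.017, with 5 positive and 5 negative values, beside a median of -0.14 over all genes tested in that fit. Without control replicates 1 and 2 the median was -0.44, with 1 positive value. With the receptor-gene background subtracted from each library's counts it was -0.39. None of the 10 genes was called in any of these fits.

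**Figure D3:**
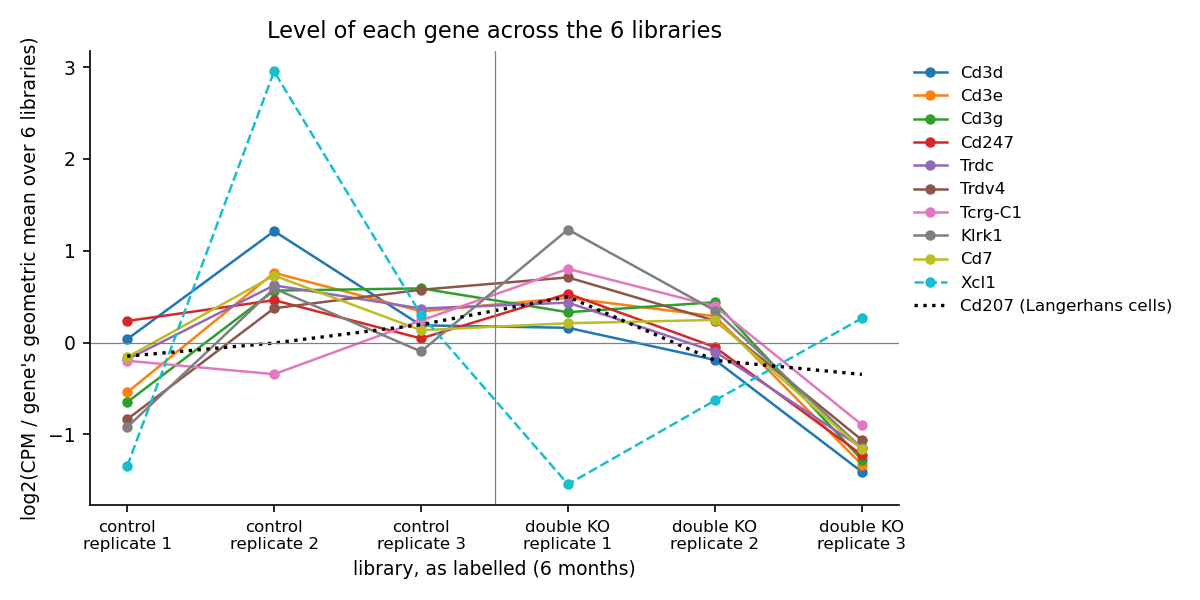
Log2 ratio of each gene's CPM to its own geometric mean over the 6 libraries at 6 months, 1 line per gene, with Cd207, a Langerhans cell marker, dotted. Apart from Xcl1 (dashed), all lines are lowest in dKO-labelled replicate 3, where Cd207 lies above them.

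Markers of other cells in dKO-labelled replicate 3 were read beside these values. The 10 Langerhans cell markers summed to 1310, 1084 and 1090 CPM in replicates 1, 2 and 3 of that group and to 1352 to 1524 CPM in the controls. Cd207, which encodes langerin and defines these cells, was at 33.8, 20.9 and 18.8 CPM there and at 21.6 to 27.4 CPM in the controls. Langerhans cell values in replicate 3 were thus close to those in replicate 2, where the T cell genes were higher. The 10 keratinocyte markers summed to 20739, 24853 and 24402 CPM in the group and 14419 to 16693 CPM in the controls, and 4 of the 10 passed the threshold, all higher: Krt14 (log2 fold change 1.71), Krt1 (1.05), Krt5 (0.90) and Dsg3 (0.84). Among markers of macrophages and neutrophils the sum was 55.7, 23.1 and 261 CPM. Most of the sum in replicate 3 came from S100a8 (172 CPM) and S100a9 (70.8 CPM), alarmin genes of neutrophils and of stressed keratinocytes, which were named after their values were seen. The neutrophil marker Ly6g had 0 CPM in replicate 3. The part of these markers in the result was not tested.

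Other genes of white blood cells and T cells were less far below their group in the same library. Ptprc, which encodes CD45 of all white blood cells, was at 71.8, 58.0 and 34.9 CPM in the dKO-labelled libraries and 29.0, 57.3 and 68.0 CPM in the controls. Itgae, the integrin chain that anchors T cells and Langerhans cells to E-cadherin, was at 24.6, 17.5 and 9.35 CPM and at 7.72, 19.4 and 10.9 CPM. Replicate 3 held 0.538 and 0.445 of the mean of the group's other libraries for these genes, less far below it than the 9 genes above. Trac, the constant region of the alpha chain of alpha-beta T cells, was under 1.3 CPM in all 6 libraries, against 12.1 to 41.3 CPM for Trdc. Trbc2, of the beta chain, was at 16.9, 14.9 and 10.1 CPM and at 10.03 to 12.6 CPM in the controls, and it shares 30.9% of its runs of 100 bases with Trbc1.

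Measured against Cd3e, most of the other genes kept a steadier proportion than their levels did. With 0.5 added to each count, the SD of log2 CPM over the 6 libraries was 0.775 for Cd3g, and that of the log2 ratio to Cd3e was 0.179. For Trdc these were 0.642 and 0.258, for Trdv4 0.747 and 0.284, and for Cd7 0.636 and 0.243. The ratio of counts of Trdc to Cd3e stayed between 0.559 and 0.937, and that of Trdv4 to Cd3e between 0.0712 and 0.112. Tcrg-C1 kept less of a proportion (0.601 and 0.573), its lowest ratio being in control replicate 2. Xcl1 kept none, with a ratio to Cd3e that ranged 18.7-fold. Ratios to Cd3e share the Cd3e count, and they describe 6 libraries.

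Per exonic kilobase, Tcrg-C1 had the highest level, 18.4 ± 7.38 CPM per kb (mean and SD of the 6 libraries at 6 months). It was followed by Cd7 at 17.3 ± 6.40, Cd3e at 9.98 ± 4.30, Trdv4 at 8.498 ± 3.70 and Trdc at 7.45 ± 2.75 CPM per kb. Then came Cd3g at 3.89 ± 1.63, Xcl1 at 3.11 ± 4.64, Cd247 at 1.56 ± 0.534, Cd3d at 1.22 ± 0.686 and Klrk1 at 0.796 ± 0.479 CPM per kb. Of neighbours in this order, only Cd7 over Cd3e and Trdc over Cd3g held in 6 of 6 libraries. The other neighbours changed places in at least 1 library and are not separated beyond their spread.

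The V segments in use were read from the counts of the 6 genes named Tcrg-V and the 6 named Trdv in the count files. These are called gamma and delta V counts here, and V segments under other names were not included. Tcrg-V5 made up 90.5%, 76.5% and 91.6% of gamma V counts in the controls, from 74, 81 and 95 counts. It made up 86.5%, 84.1% and 51.0% in the dKO-labelled libraries, from 163, 176 and 49 counts. Replicate 3 was again apart: 25 of its 49 gamma V counts were Tcrg-V5 (Wilson 95% interval 37.5% to 64.4%) and 12 were Tcrg-V6, a segment used by gamma-delta T cells of the dermis and other tissues. In replicates 1 and 2 of that group the intervals were 80.4% to 90.9% and 78.0% to 88.8%. These intervals cover counting error only, since reads made by PCR are not independent molecules, and with 1 such library no test of the share between groups bears on it.

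Trdv4 made up 74.2%, 80.6% and 100% of delta V counts in control replicates 1, 2 and 3 and 100%, 100% and 93.5% in the dKO-labelled libraries. The share under 90% was found only in control replicates 1 and 2, the libraries with the high counts over receptor genes. Trdv5 had 6 and 3 counts in these 2 controls and 2 counts in dKO-labelled replicate 3. Exons of Trdc on the opposite strand cover 47.3% of its exonic bases. The use of strand in counting is not given, so the Trdv5 counts and the delta shares are uncertain to that extent. In dKO-labelled replicate 3, 29 of 31 delta V counts were Trdv4 (Wilson 95% interval 79.3% to 98.2%), so its delta share lay within the range of the other libraries. The difference between the chains was not tested. Tcrg-V5 as a gene gave 5.56, 5.48 and 5.66 CPM in the controls, against 10.2, 10.1 and 1.41 CPM in the other group (log2 fold change 0.28 ± 0.59, adjusted p = 0.766, edgeR).

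**Figure D4:**
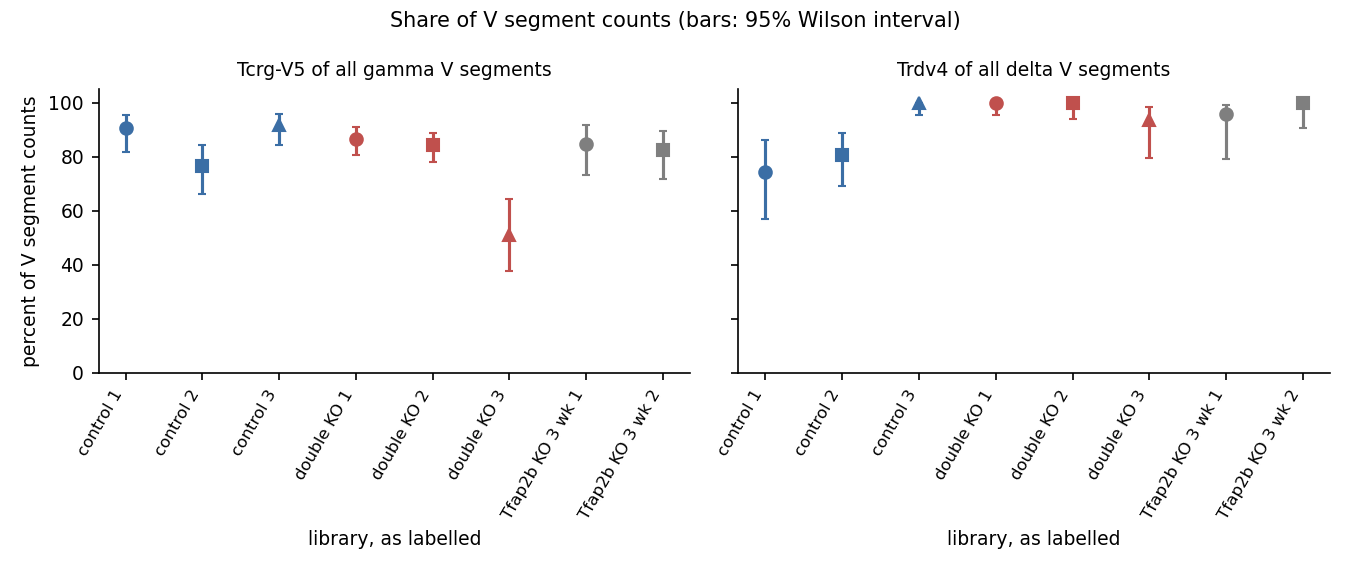
Share of Tcrg-V5 among counts of the genes named Tcrg-V (left) and of Trdv4 among counts of the genes named Trdv (right) in each of the 8 libraries, with 95% Wilson intervals. The dKO-labelled replicate 3 is at 51.0% for Tcrg-V5 while every other library is at 76.5% or more.

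Genes of the same cells outside the 10 were read from 8 lists, of T cell receptor genes, signalling, cytotoxicity, effector molecules, homing, transcription factors, cytokine receptors and epithelial ligands. Lists for 10 cell types were added, among them the markers just given. In all, 161 of their 233 genes were tested and 34 passed the threshold, 14 higher (6.26% of all tested genes were called higher) and 20 lower (8.59% of all were called lower). Of the 34, 27 stayed called in the same direction with the background subtracted and 8 without control replicates 1 and 2 (among them Bcl11b, Ccl27a, Dsg3, H60c, Krt14, Maf and Prkcq). With each library left out in turn, 9 stayed called in all 6 fits (Ccl27a, Col3a1, Dsg3, H60c, Krt1, Krt5, Krt14, Maf and Thy1), and the other 25 were lost in at least 1 of them.

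The other gamma-delta receptor genes gave 0 calls of 3 tested, and 0 of 3 had an unadjusted p under 0.05 in edgeR; limma-voom and DESeq2 called 0 as well. Tcrg-C2 (1.82 ± 0.873 CPM in the controls against 1.396 ± 0.399 CPM, SD, n = 3 each) and Tcrg-C4 (2.29 ± 0.907 against 2.98 ± 1.32 CPM) did not pass. Of 22 tested genes of T cell receptor signalling, 2 rose and 1 fell, with a list median log2 fold change of -0.55. Thy1, the Thy-1 antigen that marks these cells in the epidermis, was at 17.3, 31.5 and 21.1 CPM in the controls, against 102, 89.7 and 56.9 CPM in the dKO-labelled libraries (log2 fold change 1.75 ± 0.27, adjusted p = 0.00494, edgeR). The groups did not overlap, and replicate 3 was again the lowest of its group, yet above every control. Prkcq, which encodes protein kinase C theta, rose by 1.23 ± 0.25 (adjusted p = 0.0127, edgeR), from 6.19 to 10.5 CPM in the controls to 19.4 to 25.3 CPM. Without control replicates 1 and 2 the adjusted p of Thy1 was 0.0626, and without dKO-labelled replicate 1 that of Prkcq was 0.0587.

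Txk, a T cell kinase of the Tec family, fell, from 10.7, 9.54 and 1.497 CPM in the controls to 1.23, 0.136 and 0.394 CPM (log2 fold change -3.44 ± 0.89, adjusted p = 0.0279, edgeR). Its high values were in control replicates 1 and 2, and it was not called without them. Among 11 tested genes of cytotoxicity and NK-type receptors, 1 passed: Klrb1f, an NK cell receptor gene, fell, from 1.502 to 2.02 CPM in the controls to 0, 0 and 0.394 CPM (log2 fold change -2.76, adjusted p = 0.0465, edgeR). The call was lost in 8 of 15 alternatives, among them the one with the background subtracted (log2 fold change -2.59, adjusted p = 0.0667) and those without control replicate 1 or 2 or dKO-labelled replicate 1 or 2, while the log2 fold change stayed between -4.52 and -2.44 in all 15. Klrd1, which encodes CD94, was at 2.08, 2.21 and 5.14 CPM in the controls, against 15.1, 9.82 and 2.25 CPM in the dKO-labelled libraries. As for the 9 genes above, replicate 3 was the low one of the latter group, at 0.181 of the mean of the others, and the gene did not pass (log2 fold change 1.39 ± 0.64, adjusted p = 0.160, edgeR).

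Of 6 tested effector genes, 3 fell in edgeR, where 8.59% of all tested genes were called lower. DESeq2 called 3 of the 6 and limma-voom 1. Areg, an EGF receptor ligand that T cells and keratinocytes make, was at 30.1, 45.9 and 45.3 CPM in the controls, against 18.5, 11.3 and 22.9 CPM in the dKO-labelled libraries (log2 fold change -1.27 ± 0.27, adjusted p = 0.0168, edgeR). Igf1, a growth factor that these cells can supply to keratinocytes and that fibroblasts also make, fell from 1.17 to 3.98 CPM to 0.0724 to 0.409 CPM (log2 fold change -2.90, adjusted p = 0.0185, edgeR). Its call was lost in 9 of 15 alternatives, among them the one with the background subtracted (log2 fold change -2.17, adjusted p = 0.0656) and those without any 1 library other than control replicate 3, while the log2 fold change stayed between -3.51 and -1.87 in all 15. Tnf was at 10.8 to 21.3 CPM against 7.10 to 10.98 CPM (adjusted p = 0.0397, edgeR), with groups that overlapped. The call of Tnf was lost in 8 of 16 alternatives and that of Areg in 4 of 16. None of these genes is made by 1 cell type alone, and their source in the sheets was not measured.

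Of 17 tested genes of homing, residence and costimulation, 1 rose: Cd44, the hyaluronan receptor, which keratinocytes also carry, went from 745 to 832 CPM in the controls to 1014 to 1830 CPM (adjusted p = 0.0239, edgeR). Of 19 tested T cell transcription factors, 3 rose and 3 fell. Maf rose from 94.8 to 140 CPM to 299 to 332 CPM (log2 fold change 1.33 ± 0.16, adjusted p = 0.00125, edgeR). Bcl11b rose from 122 to 288 CPM to 556 to 582 CPM (adjusted p = 0.0115), and Runx1 from 31.7 to 44.2 CPM to 51.1 to 132 CPM (adjusted p = 0.0499). Levels of Maf and Bcl11b in dKO-labelled replicate 3 were 1.10 and 0.962 of the mean of the others, unlike the T cell receptor genes. Lef1 (adjusted p = 0.0393) and Prdm1 (adjusted p = 0.0208) were among those that fell, in the same edgeR test. The call of Runx1 was lost in 11 of 16 alternatives and that of Lef1 in 10 of 15. For both, these included the fit with the background subtracted. Keratinocytes and hair follicle cells use several of these factors.

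Among 14 tested genes of cytokine receptors that maintain these cells, 2 rose and 2 fell. Il2rg, the common gamma chain of the receptors for IL-7 and IL-15, fell from 14.1 to 21.8 CPM to 11.01, 7.16 and 3.55 CPM (log2 fold change -1.35 ± 0.37, adjusted p = 0.0380, edgeR). Il18r1, an IL-18 receptor chain, fell from 33.5 to 53.6 CPM to 24.5, 21.7 and 10.1 CPM (adjusted p = 0.0407). For both, replicate 3 was the lowest library, at 0.391 and 0.436 of the mean of the others. Tgfbr2, a TGF-β receptor chain, rose from 71.6 to 101 CPM to 121 to 148 CPM (adjusted p = 0.0350), and Jak3, the kinase bound to the common gamma chain, rose from 6.31 to 8.75 CPM to 13.3 to 17.2 CPM (adjusted p = 0.0282). The call of Il2rg was lost in 8 of 16 alternatives, and those of Il18r1, Tgfbr2 and Jak3 in 7 of 16 each.

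Of 13 tested epithelial ligands and cytokines that act on these cells, 1 rose and 1 fell. H60c, a ligand of NKG2D that keratinocytes carry (chromosome 10, 3256208 to 3267771), was at 18.4, 28.5 and 20.9 CPM in the controls, against 47.0, 51.1 and 60.2 CPM in the dKO-labelled libraries (log2 fold change 1.15 ± 0.20, adjusted p = 0.00757, edgeR). Ccl27a, which encodes a keratinocyte chemokine that binds CCR10 (chromosome 4, 41769467 to 41774247), was at 48.4, 54.1 and 61.9 CPM in the controls, against 14.1, 13.7 and 13.9 CPM in the other group (log2 fold change -2.04 ± 0.16, adjusted p = 0.000202, edgeR). Neither pair of groups overlapped, and both genes stayed called in all 16 alternative fits. The dKO-labelled replicate 3 did not stand apart for either. Il15, a cytokine that keeps these cells alive, was at 11.7, 15.7 and 22.3 CPM and at 12.3, 11.4 and 5.13 CPM, lowest in that replicate, and did not pass (log2 fold change -0.86 ± 0.35, adjusted p = 0.119, edgeR).

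**Figure D5:**
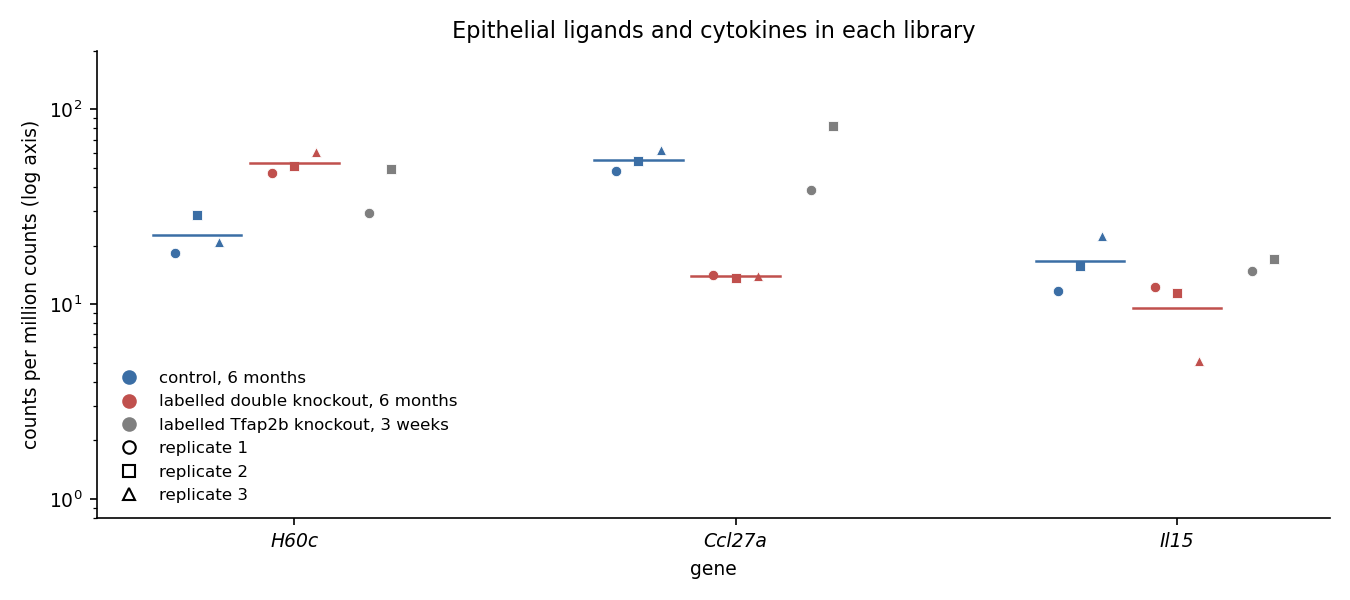
CPM on a log axis of H60c, Ccl27a and Il15 in each of the 8 libraries, with a bar at the mean of each 6-month group. The groups at 6 months do not overlap for H60c and Ccl27a and overlap for Il15.

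Markers of other cells the sheets could hold were read from the same fit. Of 6 tested alpha-beta T cell markers 2 fell: Cd8a, from 1.37 to 4.90 CPM to 0.338 to 1.09 CPM (adjusted p = 0.0488, edgeR), and Ctla4, from 4.88 to 8.55 CPM to 0.869 to 2.66 CPM (adjusted p = 0.0190). The call of Cd8a was lost in 10 of 15 alternatives, among them the one with the background subtracted, and that of Ctla4 in 5 of 16. Of 4 tested markers of NK and innate lymphoid cells 2 fell, among them Il23r, from 3.58 to 9.88 CPM to 0.845 to 2.10 CPM (adjusted p = 0.0233). Of 10 Langerhans cell markers 2 fell, among them H2-Ab1 (log2 fold change -0.66, adjusted p = 0.0342). Of 8 dermal fibroblast markers Col1a1, Col1a2 and Col3a1 fell and Col6a1 rose. Of 8 tested macrophage and neutrophil markers 1 fell, Mrc1. The B cell (3 tested), mast cell (1), endothelial (4) and melanocyte (4) lists had no call in edgeR, where 1 B cell and 1 melanocyte marker had an unadjusted p under 0.05; DESeq2 called 1 in each of these 2 lists and limma-voom called 0 in all 4 lists.

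The 8 genes whose pattern over all 8 libraries was most like that of the 10 genes were Slc17a9, Ptpn5, Il2rb, Sytl2, Ttc26, Gm15824, A130071D04Rik and Nubpl. Likeness was the root mean square difference between a gene's centred log2(CPM + 1) and the mean of the 10 genes, and it ranged from 0.195 to 0.226 for these against a median of 0.593 over 17698 genes. The 8 were picked for the smallest differences, so values under that median follow from the choice. Several rest on low counts, Gm15824 on 13 to 42 per library at 6 months. In control replicate 2 the density over receptor genes corresponds to 15.8 of 64 counts for Nubpl and 8.88 of 277 for Il2rb. Among the 10 genes themselves Cd7 (0.146) and Trdc (0.169) were closest to their mean and Xcl1 (0.710) farthest. Il2rb, the only one of the 8 that is in any list, encodes the receptor chain for IL-2 and IL-15. It was at 14.4, 24.5 and 20.5 CPM in the controls, against 20.4, 11.7 and 7.27 CPM in the dKO-labelled libraries, lowest in replicate 3.

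In the 2 libraries labelled K14CreTfap2bfl/fl from mice aged 3 weeks, all 10 genes had more than 3 counts. Cd3e was at 19.8 and 28.8 CPM in replicates 1 and 2, Trdc at 14.6 and 25.2 CPM, Tcrg-C1 at 9.64 and 17.3 CPM and Cd7 at 13.95 and 15.4 CPM. Replicate 1, the library with high fibroblast and endothelial sums, held the lower value of each of these genes. Cd3g was at 8.40 and 13.3 CPM, Cd247 at 5.63 and 6.39 CPM, Trdv4 at 1.70 and 2.96 CPM and Klrk1 at 2.24 CPM in both. Cd3d (1.00 and 0.320 CPM) and Xcl1 (0.925 and 1.12 CPM) rested on 4 to 14 counts. Age and genotype cannot be told apart here, and no comparison with the 6-month groups was made.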

How the data were processed

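Total RNA of epidermal sheets was sequenced in 21 samples in 7 groups of 3, grouped by their titles. Each deposited file gives raw counts, as whole numbers, for 49315 Ensembl genes. Per the submitters' processing notes, the tools included Trimmomatic 0.36, STAR 2.5.2b and featureCounts of Subread 1.5.2, with the builds GRCh38 and GRCm38; their roles and the use of strand are not given in the sources used here. Of the genes, 48970 (99.3%) were in GENCODE M21 (GRCm38), on the same chromosome. In 13 files every gene was listed at 0, and 8 held counts.

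The 6 libraries at 6 months were fitted in edgeR 4.0.16 (R 4.3.3): filterByExpr, TMM factors, robust glmQLFit, prior count 2, glmQLFTest, Benjamini-Hochberg adjustment over all 17755 genes tested, threshold 0.05. The steps were tested on simulated data. CPM values were computed here from the total counts. Alternatives, including DESeq2 1.42.0, limma-voom (limma 3.58.1), a background subtraction based on 1418 receptor genes, and libraries left out, are in the closing section. The labels do not say whether samples of the same replicate number were pairs, and the main fit did not treat them as pairs.

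The 10 genes and the lists were chosen with earlier results of these data known. Named from each list were the genes past the threshold, up to the 6 with the highest CPM, or else the 3 with the highest CPM. For lists of other cell types without a call, sums or counts stand in their place. Some further genes were named as markers. Some genes of the lists that passed the threshold are counted but not reported here by name.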

Additional observations from a re-analysis of the deposited data

Results flagged for a closer look

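The 2 libraries labelled Tfap2b knockout at 3 weeks lie outside the comparison and nonetheless held counts of all 10 genes, which is why they are listed here. The summed level of the 10 genes was 77.9 CPM in replicate 1 (1011 counts) and 113 CPM in replicate 2 (1414 counts). All 10 genes were above 3 counts in both libraries. The lowest was Xcl1 with 12 counts in replicate 1 and Cd3d with 4 counts in replicate 2. A count of 0 would allow up to 3 counts, or 0.231 and 0.240 CPM in these libraries. No control library of that age held counts, so the values stand without a comparison.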

How the results depend on the processing

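Over 16 alternatives, 159 fitted values of the 10 genes gave 0 calls, with a lowest adjusted p of 0.0695 (Xcl1 with no filter on low counts), and 8 changed sign. Those were Cd3e (-0.63 to 0.065) and Cd3g (-0.63 to 0.067), positive without dKO-labelled replicate 3 alone; Trdv4, positive in 3 fits that each left out 1 library, over a range of -0.44 to 0.28; Tcrg-C1 (range -0.064 to 0.64 with 1 library left out, and -0.043 without control replicates 1 and 2); and Klrk1 (range -0.22 to 0.81). Among other named genes, Tcrg-V5 was -0.26 in limma-voom and -0.047 with the replicate number as a block; Tcrg-C2 was 0.033 without control replicates 1 and 2, and -0.59 to 0.0060 with 1 library left out. Ptprc was -0.014 with at least 10 counts in every library, -0.37 without control replicates 1 and 2, and -0.26 to 0.35 with 1 left out. Cd207 was 0.0012 with total counts, 0.041 with no filter, and -0.31 to 0.12 with 1 left out. All are log2 fold changes, and the cause was not tested.

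The 2637 genes called became 4809 with no filter, 1729 with the replicate block, 1548 with all libraries in one fit, 437 without control replicates 1 and 2, and 668 (without dKO-labelled replicate 1) to 7544 (without control replicate 3) with 1 library left out; each of the 6 moved the count by over 1.5 times. The 34 calls in the other lists became 53 with no filter, 16 with all libraries in one fit, 10 without control replicates 1 and 2, and 14 to 62 with 1 library left out. Of these 34, 5 stayed called under every alternative: Ccl27a, Dsg3, H60c, Krt14 and Maf. With total counts as the only scaling, 50.9% of calls were higher, against 42.1%. The replicate block called none of the 10 genes; the correlations of same-numbered deviations were 0.0276, -0.161 and -0.0574. Depth limits Xcl1 and Cd3d most, with 4 to 74 and 13 to 51 counts per library.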

Other observations

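Genes of the gamma-delta T cells that make IL-17 were looked at after the share of Tcrg-V6 in dKO-labelled replicate 3 had been seen, so this list was chosen after the values. Il17a had 8 counts in that library and 0 in replicates 1 and 2 of its group, and Il17f had 9 counts against 0 and 2. Ccr6, a chemokine receptor of these cells, had 20 counts against 3 and 5, and Icos, a costimulatory receptor, had 58 against 28 and 13. Sox13, a transcription factor of these cells that other skin cells also use, was at 9.47 CPM there, but also at 8.48 CPM in control replicate 2 and 9.17 CPM in replicate 1 of the 3-week group, so its level did not set that library apart. Il23r, a receptor gene of these cells, did not stand above its group there, at 0.845 CPM against 2.10 and 1.295 CPM.

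In the controls, replicate 2 also held Il17f (11 counts), Tcrg-V6 (6 counts), Ccr6 (16 counts) and Icos (30 counts). On the CPM scale, Il17f (0.972 against 0.507 CPM) and Ccr6 (1.41 against 1.13 CPM) were higher in that control than in dKO-labelled replicate 3, and Il17a (0.177 against 0.451 CPM), Tcrg-V6 (0.530 against 0.676 CPM) and Icos (2.65 against 3.27 CPM) were lower. In that library the density over receptor genes corresponds to 6.45 counts for a gene of the exonic length of Il17f and 6.47 for Ccr6, whereas in dKO-labelled replicate 3 it corresponds to 0.267 for each. Il17a, Il17f, Ccr6 and Tcrg-V6 did not pass the filter on low counts and were not tested, and Icos (adjusted p = 0.557) and Sox13 (adjusted p = 0.811) were not called in edgeR. The values of dKO-labelled replicate 3 come from 1 library.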
